A study of Sus scrofa with 90 samples.

Results

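MAPK12 and CAPNS1 were each represented on the array by 1 spotted cDNA feature, and these 2 features were followed through the healing of pig muscle after an injection of propylene glycol. MAPK12 is the feature numbered 6522 (cDNA accession DR083416 in the platform annotation) and CAPNS1 the feature numbered 4985 (BX666225). They are the only features listed with either symbol as their single gene, both had a value in every column of the table, and they are 2 of 1908 such features, of which 206 carry a gene symbol for 121 genes. The genes were chosen by their measured values, MAPK12 for its difference from control in lesions of 6 h and CAPNS1 for its difference in lesions of 7 d against control and against 2 d. Those differences are therefore given as a description without a test, and so are the other differences from control, because they share the control samples.

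MAPK12 is the p38 gamma kinase, a member of the stress-activated MAP kinase family that is abundant in skeletal muscle. Upstream MAP kinase kinases switch it on by phosphorylation, and in muscle it is known for roles in differentiation and in the response to contraction. CAPNS1 is the small regulatory subunit shared by the calcium-dependent proteases calpain 1 and calpain 2, which cannot work stably without it. Calpains cut cytoskeletal and myofibrillar proteins and take part in membrane repair and in the remodelling of injured fibres.

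The samples came from the Longissimus dorsi, a back muscle, of 10 piglets labelled C to L. Propylene glycol, a solvent in which drugs for injection are dissolved, was given into the muscle, and each piglet received it at intervals so that sites of different age could be taken from the same animal. Muscle that was not injected (control) gave 10 samples, the 6 h and 2 d lesions gave 10 samples each, and the 7 d and 21 d lesions gave 9 each. The sources used here do not give breed, sex or age of the piglets. Each sample was hybridised, as cDNA labelled with phosphorus 33, to 1 array.

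The values are logarithms of unstated base, so differences are given in log units and not as folds. The array of the 6 h lesion of pig F did not line up with the feature list. Its correlation with the average of all others was r = 0.240 as deposited and r = 0.739 after a move by 384 places, while the other 47 arrays had at least r = 0.718 as deposited. It was left out, and values with it are given for some of the results that changed, not for all. One of the pair of columns labelled as the 6 h lesion of pig J held the very values of pig I's control and was left out too. The spread of values within an array was wider in controls than in old lesions, with a median SD of 1.03 in controls, 0.743 and 0.796 in lesions of 6 h and 2 d, and 0.590 and 0.588 in those of 7 d and 21 d. Values called normalized below were quantile-normalized, which gives every array the same spread.

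In the deposited values both features stood among the strong signals of nearly every array, and both were lower in most lesions than in controls. MAPK12 ran from 1.68 to 2.80 with a median of 2.26 in the 9 lesions of 6 h, against 1.99 to 3.73 with a median of 3.42 in the 10 controls. In the 10 lesions of 2 d it ran from 2.17 to 3.29 (median 2.55), in the 9 of 7 d from 1.10 to 2.71 (median 1.80) and in the 9 of 21 d from 1.22 to 3.48 (median 1.91). The groups overlapped at every age. The controls of pigs C (2.05) and L (1.99) were as low as many lesions, while the other 8 controls lay at 3.15 or above. At 6 h and 7 d no lesion reached those 8 controls, whereas the lesions of pigs J (3.29) and K (3.27) at 2 d and of pig C (3.48) at 21 d lay within their range.

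CAPNS1 showed a similar layout in the deposited values, but with more overlap at 6 h. The 6 h lesions of pigs I (2.69), J (2.66) and K (2.57) lay above the control of pig D (2.51), as did several lesions of 2 d. It ran from 0.109 to 2.42 (median 1.43) in the lesions of 7 d, against 1.61 to 4.11 (median 3.35) in controls. In lesions of 6 h it ran from 1.30 to 2.69 (median 1.81), in those of 2 d from 1.33 to 3.42 (median 2.56) and in those of 21 d from 0.731 to 3.32 (median 1.61). Again the low controls were those of pigs C (1.61) and L (1.87), and the highest lesion of 21 d was that of pig C, for MAPK12 as for CAPNS1.

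**Figure D1:**
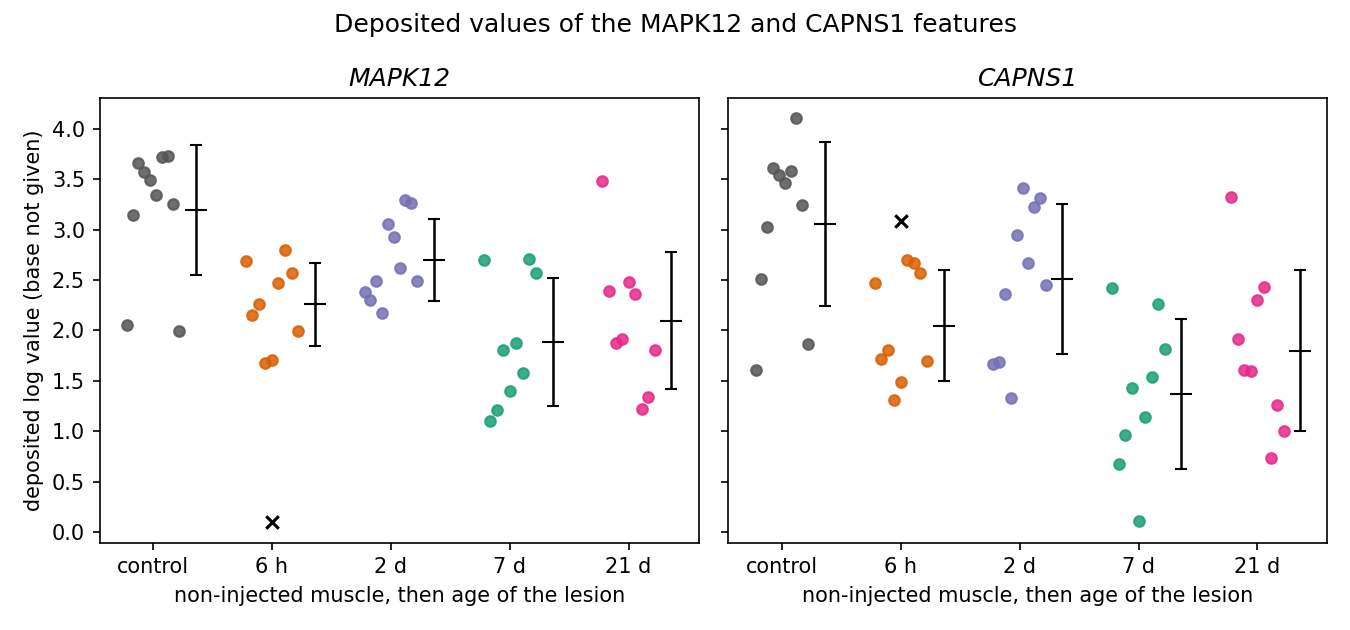
Deposited log values (base not given) of the MAPK12 and CAPNS1 features in each sample, for control muscle and the 4 lesion ages. Each dot is a sample, the bar beside it is the mean with its SD, and the cross is the misplaced 6 h array of pig F, which is not in the mean. Pigs C and L have the 2 low controls for both genes.

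The deposited value of each feature followed the spread of its array. Over the 47 arrays the deposited value correlated with the SD of the array at r = 0.939 for MAPK12 and at r = 0.890 for CAPNS1. The controls of pigs C and L, where both genes were low, had array SDs of 0.528 and 0.594, against 0.974 or more in the other 8 controls. The correlation of MAPK12 with CAPNS1 over the same arrays was r = 0.943. Strong signals shared this behaviour, with a median of r = 0.811 over all pairs of the 100 features with the highest mean. After quantile normalization that median was r = 0.0332, and MAPK12 with CAPNS1 had r = 0.423, or r = 0.319 once group and animal were removed. Normalization lowered the relation to array SD and did not remove it, since the normalized values still correlated with the SD of the array at r = 0.392 for MAPK12 and at r = 0.539 for CAPNS1, and array SD differed between the groups. All of these are descriptions, since features of 1 array share its RNA, its hybridisation and its scan.

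**Figure D2:**
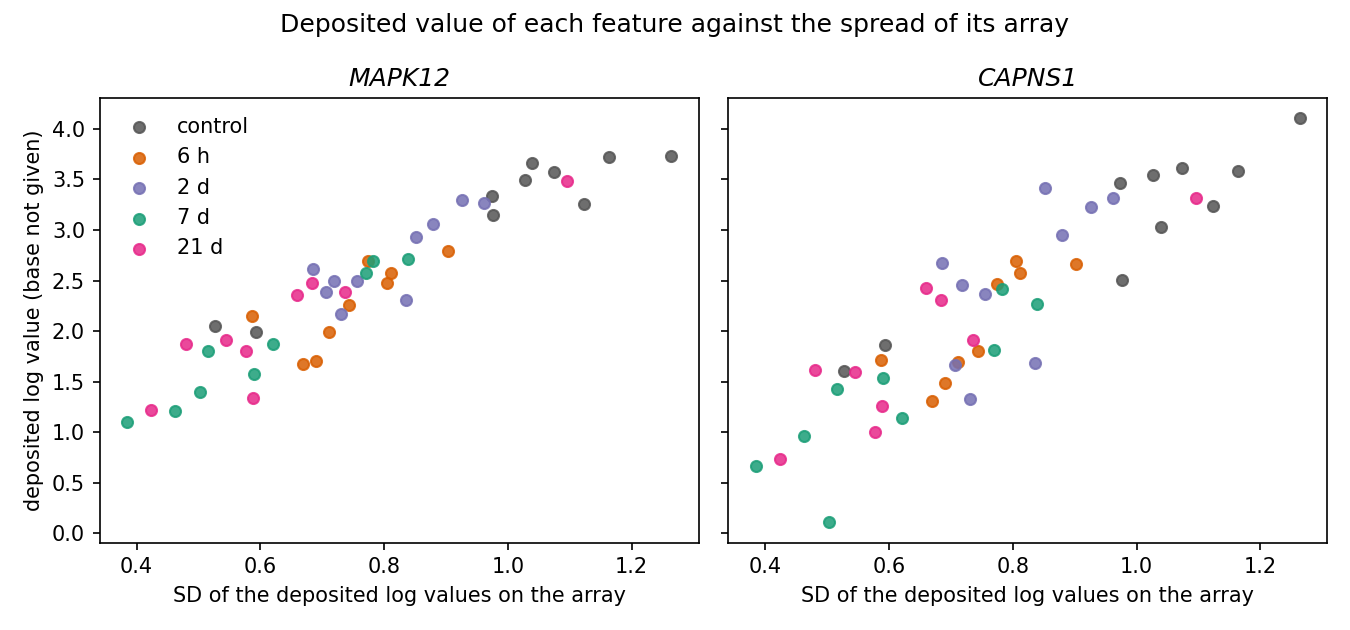
Deposited log value of the MAPK12 and CAPNS1 features (vertical axis, base not given) against the SD of all deposited log values on the same array (horizontal axis), 1 dot per array and coloured by group, for 47 arrays. The points lie along a rising line, with r = 0.939 for MAPK12 and r = 0.890 for CAPNS1, and most controls sit at its upper end.

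With the spread of the arrays made equal, MAPK12 varied little. Its normalized value was 2.31 ± 0.19 (SD, n = 9) at 6 h, against 2.59 ± 0.17 (SD, n = 10) in controls. It was 2.51 ± 0.084 (SD, n = 10) at 2 d, 2.31 ± 0.19 (SD, n = 9) at 7 d and 2.49 ± 0.16 (SD, n = 9) at 21 d. Its place among the 1908 features moved only slightly, with a mean percentile within the array of 97.3 and 98.2 in lesions of 6 h and 2 d and 97.3 and 98.1 in those of 7 d and 21 d, against 98.4 in controls. Percentiles rank hybridisation signals and do not compare the RNA amounts of different genes.

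The normalized values of CAPNS1 had a larger SD than those of MAPK12 in each of the 5 groups. Its normalized value was 1.66 ± 0.62 (SD, n = 9) at 7 d, against 2.42 ± 0.22 (SD, n = 10) in controls. It was 2.10 ± 0.27 (SD, n = 9) at 6 h, 2.32 ± 0.40 (SD, n = 10) at 2 d and 2.12 ± 0.37 (SD, n = 9) at 21 d. Much of the spread at 7 d came from pig G, at 0.156, while the other 8 lesions of that age lay between 1.49 and 2.23. That sample stood at percentile 56.3 of its array, against 90.9 to 97.0 in the other 8.

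**Figure D3:**
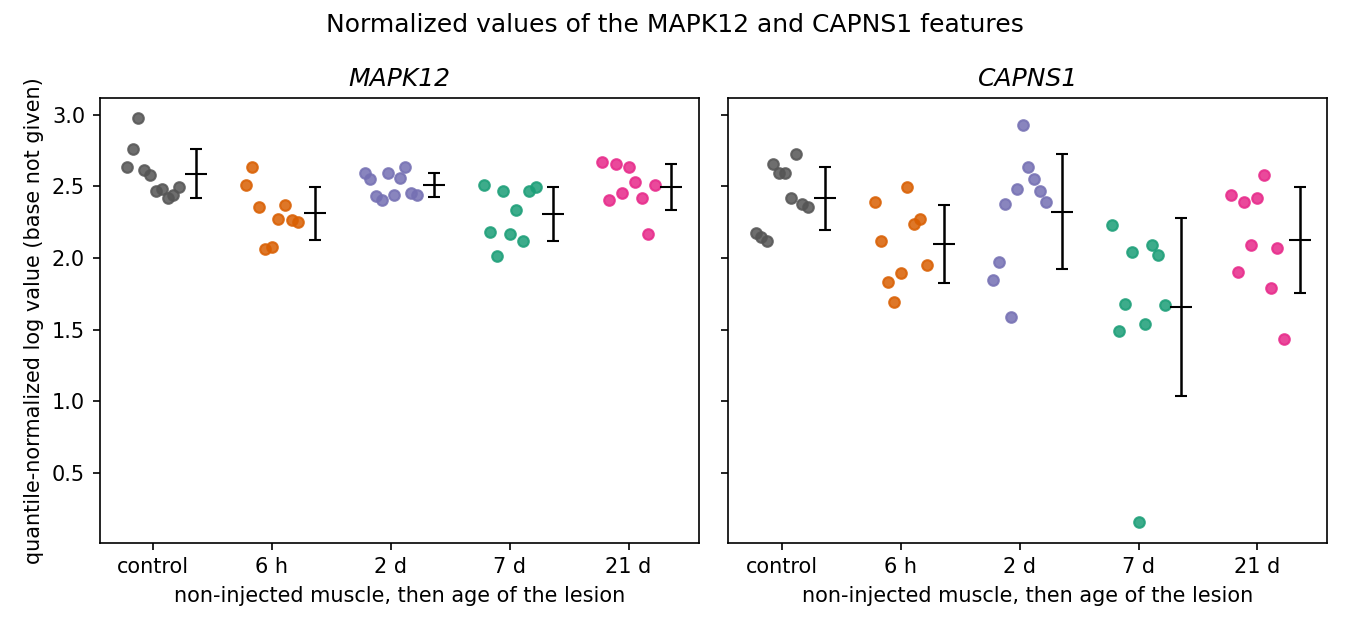
Quantile-normalized log values (base not given) of the MAPK12 and CAPNS1 features in each of the 47 samples, for control muscle and the 4 lesion ages. Dots are samples and bars are means with SD. MAPK12 stays between 2.01 and 2.98, and the 7 d lesion of pig G at 0.156 lies far below all other values of CAPNS1.

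Both genes had the same order of normalized group means, which from high to low was control, 2 d, 21 d, 6 h and 7 d. For MAPK12 the fitted step between neighbours in this order was -0.08 (SE 0.0765) for 2 d minus control and -0.02 (SE 0.0791) for 21 d minus 2 d. It was 0.18 (SE 0.0818) for 21 d minus 6 h and -0.01 (SE 0.0818) for 7 d minus 6 h. For CAPNS1 the steps were -0.09 (SE 0.176) for 2 d minus control, -0.20 (SE 0.182) for 21 d minus 2 d, 0.02 (SE 0.188) for 21 d minus 6 h and -0.42 (SE 0.188) for 7 d minus 6 h. Most neighbours thus lay within about their own SE, and the larger steps were 21 d against 6 h for MAPK12 and 7 d against 6 h for CAPNS1. The genes were read from the same arrays, so the shared order is 1 observation and not a pair of independent ones.

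The difference of MAPK12 from control in the fit was -0.27 (SE 0.0791) at 6 h, and all 9 pigs with both samples had the lower value in the lesion, with differences from -0.62 to -0.05. At 7 d the difference was -0.29 (SE 0.0791), with 7 of 9 pigs lower, 1 higher and 1 level. The largest gap at 7 d was that of pig E, at -0.96, whose control was the highest of all at 2.98. At 2 d the difference was -0.08 (SE 0.0765), with 6 of 10 pigs lower, and at 21 d it was -0.09 (SE 0.0791), with 5 of 9 lower. At 6 h, 7 of the 9 lesions lay below every control, and at 7 d 5 of 9 did.

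The size of the 6 h difference of MAPK12 changed when the misplaced array of pig F was kept. With that array kept in place it was -0.49 (SE 0.151), since the deposited value standing under MAPK12 on it was 0.0949, at percentile 57.2 of that array. The value standing 384 places away, where the shift would put MAPK12, was 1.82, at percentile 98.5. For CAPNS1 the value in place was 3.08, and the shifted place holds no value. The difference of CAPNS1 at 6 h was -0.13 with that array and -0.32 (SE 0.182) without it.

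The difference of CAPNS1 from control was -0.74 (SE 0.182) at 7 d, with 8 of 9 pigs lower and pig C higher by 0.0584. At 7 d, 8 of the 9 lesions lay below every control, and the exception was again that of pig C. Without the 7 d array of pig G, a setting added after the values were seen, the difference was -0.54 (SE 0.151). Without the control arrays of pigs C and L, added likewise, it was -0.80 (SE 0.200). Against 2 d the difference at 7 d was -0.65 (SE 0.182), with 7 of 9 pigs lower. At 6 h CAPNS1 differed from control by -0.32 (SE 0.182), with 7 of 9 pigs lower, at 2 d by -0.09 (SE 0.176), with 5 of 10, and at 21 d by -0.30 (SE 0.182), with 7 of 9. Of all features, 14.6% were called lower than control at 7 d and 4.87% at 6 h by limma at an adjusted p below 0.05.

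**Figure D4:**
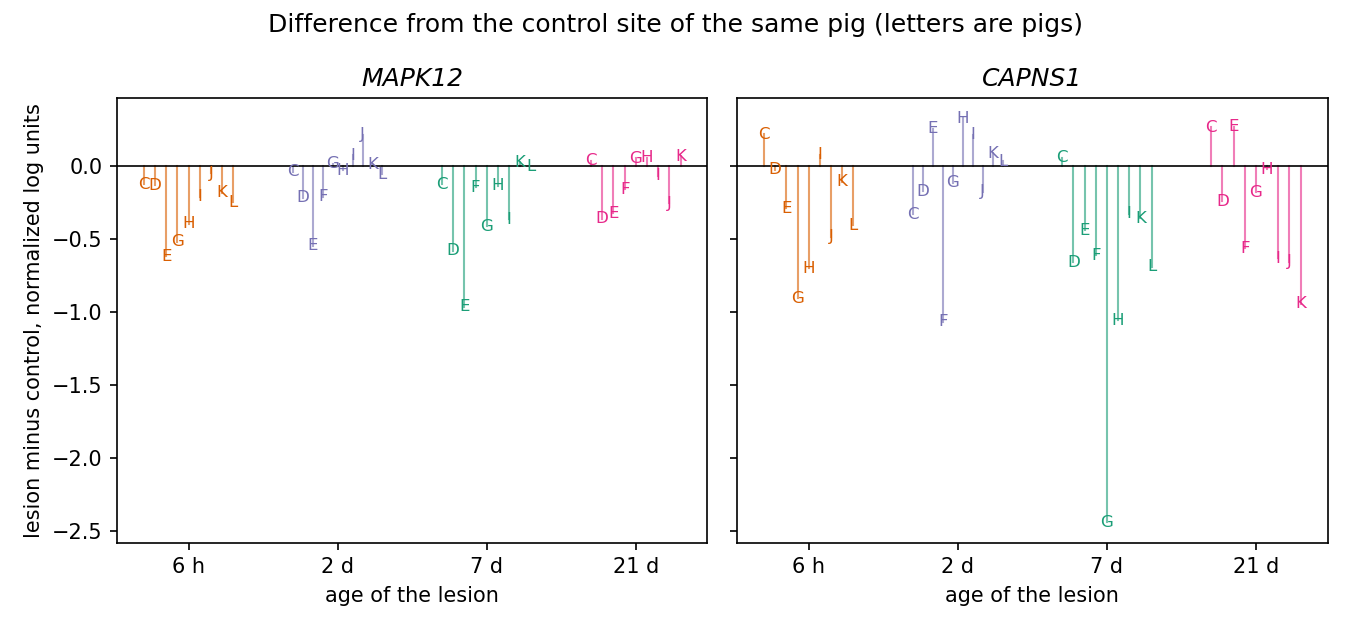
Lesion minus control of the same pig in normalized log units, for MAPK12 and CAPNS1 at the 4 lesion ages. Each line ends at the letter of its pig. All 9 MAPK12 differences at 6 h are below 0, and CAPNS1 in pig G at 7 d reaches -2.44.

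Both genes were lower than control at 6 h and 7 d in all 25 settings run, but the size depended on the setting. The settings refit largely the same samples that chose the genes, so the constant sign is a description and no added support. At 6 h the difference ran from -0.95 on the deposited values to -0.15 with a local trend subtracted for MAPK12, and from -1.03 on the deposited values to -0.11 with the array SD as a term in the model for CAPNS1. With array weights MAPK12 at 6 h was at -0.19 (SE 0.0616), and on scaled values it was at -0.16 (SE 0.444). For MAPK12 the difference at 7 d ran from -1.29 on the deposited values to -0.05 (SE 0.444) when arrays were centred and scaled by their median absolute deviation. For CAPNS1 at 7 d it ran from -1.63 on the deposited values to -0.42 with the array SD as a term in the model. The differences at 2 d and 21 d had no stable sign for either gene. Of the 25 settings, MAPK12 was higher than control in 3 at 2 d and in 4 at 21 d, and CAPNS1 was higher in 4 at 2 d and in 2 at 21 d, and these included fits on the same normalized values as well as another scaling. At 21 d MAPK12 was at -1.13 on the deposited values and at 0.35 on scaled ones, and CAPNS1 was at -1.29 and 0.10.

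**Figure D5:**
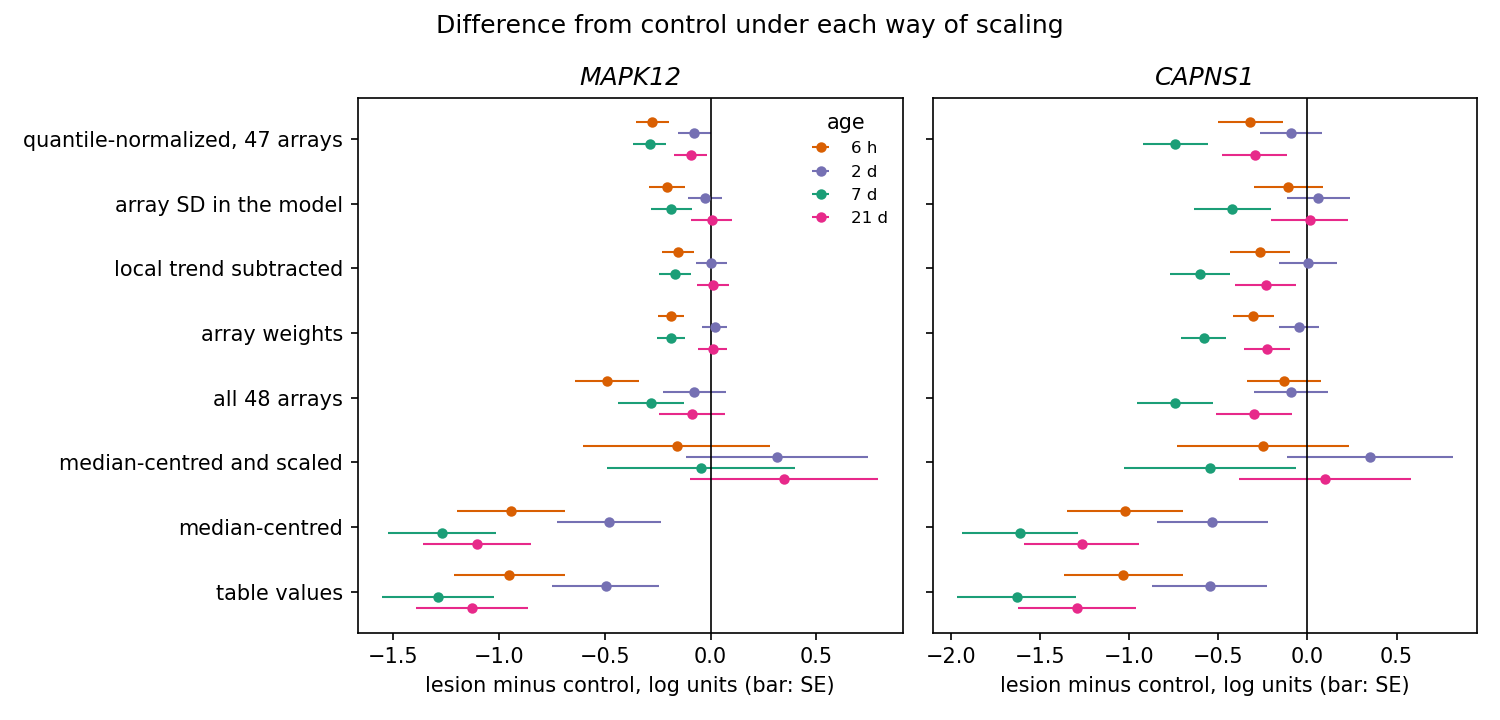
Lesion minus control in log units, with its SE, for MAPK12 and CAPNS1 under 8 ways of scaling or fitting, coloured by the age of the lesion. Deposited (table) and median-centred values give the largest differences, and the 2 d and 21 d points lie on either side of 0.

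Of the comparisons between lesion ages that share no sample with the choice of the genes, none passed the test. MAPK12 was tested for 3 of them by limma with Benjamini-Hochberg adjustment over 1908 features, and 2 had an unadjusted p below 0.05. At 7 d against 2 d it differed by -0.21 (SE 0.0791, adjusted p = 0.0617 by limma), with 6 of 9 pigs lower, in a comparison where 16.5% of all features were called. At 21 d against 7 d it differed by 0.19 (SE 0.0818, adjusted p = 0.457 by limma), with 7 of 8 pigs higher, where 0.681% of features were called. At 21 d against 2 d the difference was -0.02 (SE 0.0791, adjusted p = 0.959 by limma), with 3 of 9 pigs lower and 6.92% of features called. CAPNS1 was tested at 21 d against 6 h, where it differed by 0.02 (SE 0.188, adjusted p = 0.979 by limma), with 4 of 8 pigs higher and 1.62% of features called. The MAPK12 difference of 7 d against 2 d lay near the threshold and passed it without pig F (adjusted p = 0.0455 by limma), without pig L (adjusted p = 0.0479), with array weights (adjusted p = 0.0298) and on median-centred values (adjusted p = 0.0443). In all other settings it did not pass. Its adjusted p by limma was 0.194 with array SD in the model and 0.158 without pig I. With all 48 arrays it was 0.470, and on centred and scaled values it was 0.708.

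The pathways around these 2 genes were thinly covered. Of 18 other genes of the p38 cascade and 9 other genes of the calpain system, none had a tested feature. The 3 features listed for the calpain genes CAPN2 and CAPN3 carried no values. Among other MAP kinase and cytokine receptor kinases only JAK1, which signals from cytokine receptors, was measured, and among p38 targets and partners only SLC2A4, the insulin-responsive glucose transporter. JAK1 rose at 6 h by 0.68 (SE 0.111, adjusted p = 2.864e-05 by limma), at 7 d by 0.74 (adjusted p = 3.481e-06 by limma) and at 21 d by 0.54 (adjusted p = 0.000618 by limma), in comparisons where 6.92%, 10.7% and 6.5% of features were called higher. At 2 d its difference was 0.18 (adjusted p = 0.602 by limma), which did not pass. The mean normalized value of JAK1 in controls was -0.18, a far weaker signal than those of MAPK12 and CAPNS1. The lists were chosen with earlier results of these data known, so these p-values are no independent evidence. SLC2A4 differed by at most 0.11 at any age (adjusted p = 0.365 at 21 d).

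Proteins of the muscle fibre that calpains are known to cut, or that belong to the same filaments, were represented by 15 features of 8 genes out of 25 listed. At 6 h 1 of the 15 features was called lower, at 2 d 0, at 7 d 2 and at 21 d 2, and none was called higher at any age. The share of all features called in either direction was 11.8% and 0.734% for lesions of 6 h and 2 d, and 25.4% and 14.7% for those of 7 d and 21 d. The median difference of the 15 features was -0.03 at 7 d, against -0.01 over all features. The feature of TPM2 numbered 6108, for beta-tropomyosin of the thin filament, fell at 7 d by 0.46 (SE 0.109, adjusted p = 0.00128 by limma), and it also fell at 6 h by 0.56 and at 21 d by 0.47, a call at 21 d that was lost with array SD in the model (adjusted p = 0.0649). The other 2 features of TPM2 were not called at any age and stood at 0.16 and -0.0040 at 7 d. The feature of TNNT3, fast troponin T, numbered 7659 was at -0.18 at 7 d (adjusted p = 0.0433 by limma), and the second feature of that gene was at -0.03 and was not called. This TNNT3 call was lost in 15 of 24 other settings, among them a fit in which pigs were a random term (adjusted p = 0.0506) and those leaving out any 1 of 7 pigs (E, F, H, I, J, K or L), with adjusted p-values up to 0.164 without pig H, and on deposited values the difference was 0.0086. TPM3, slow alpha-tropomyosin, was at -0.35 at 21 d (adjusted p = 0.0135 by limma), a call lost in 7 of 24 other settings. Among these were the fits without pig D (adjusted p = 0.0546 by limma) and without pig J (adjusted p = 0.0615). The call was also lost with all 48 arrays (adjusted p = 0.0829 by limma) and with array SD in the model (adjusted p = 0.234). On centred and scaled values TPM3 was at -0.18 (SE 0.263, adjusted p = 0.760 by limma).

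The summed level of muscle fibre markers also differed with the age of the lesion, though features of the same gene did not all move together. The summed normalized value of 56 features from 10 marker genes of muscle fibres ran from 17.9 to 22.1 (median 20.3) at 7 d. In controls it ran from 22.7 to 26.05 (median 24.2), without overlap with 7 d. At 6 h it ran from 19.9 to 25.1 (median 23.4) and at 2 d from 20.4 to 26.1 (median 25.0, above that of controls). At 21 d it ran from 16.4 to 22.8 (median 21.1). Genes with more features weigh more in this sum, and it was not compared with sums of other features, so the lack of overlap is a description. Of the 56 features 17 were called lower and 4 higher at 7 d, where 14.6% of all features were called lower and 10.7% higher. Those 4 were features of 3 genes, MYLPF, MYH7 and CKM, each of which was also called lower in another feature. At 7 d MYLPF stood at 1.15 (feature 7944) and -0.58 (5772), MYH7 at 0.47 (5503) and -0.59 (4799), and CKM at 0.39 (6100) and -0.45 (5804). At 6 h 5 of the 56 were called lower and 4 higher, where 4.87% of all features were called lower and 6.92% higher. At 2 d none was called in either direction (6 at an unadjusted p below 0.05), where 0.734% of all features were called. At 21 d 9 were called lower and 3 higher, where 14.7% of all features were called in either direction and 6.5% higher. Their part in the differences of MAPK12 and CAPNS1 was not tested, and in bulk tissue fewer fibres and less RNA per fibre cannot be told apart. Array SD also differed between the groups, and its part in the marker sum was not tested. For the other cell types 1 fibroblast gene (FN1) and 1 endothelial gene (PECAM1) were measured, neither was called at any age, and none of the macrophage, neutrophil, lymphocyte, blood or adipocyte markers had a tested feature.

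The features with a gene symbol whose pattern was most like each gene, 5 for each, were read from normalized values over the 47 arrays, as a description. Features without a symbol were often closer, so that these 5 held places 9 to 47 among all 1907 other features for MAPK12 and places 2 to 50 for CAPNS1. For MAPK12 they were TPT1, a growth-related protein, at r = 0.670, MYLPF, the fast myosin light chain, at r = 0.581 (1 of its 18 features), RABAC1 at r = 0.558, OXTR, the oxytocin receptor, at r = 0.550, and RACK1, a ribosomal scaffold, at r = 0.540. For CAPNS1 they were RACK1 at r = 0.745, SLC35A4 at r = 0.668, TNNC2, fast troponin C, at r = 0.643 (1 of 12 features), CKM, the muscle creatine kinase, at r = 0.626 (1 of 10) and the ribosomal protein RPL10A at r = 0.608. The same feature of RACK1 stands in both lists. On the list of 4608 features, RACK1, CKM, SLC35A4 and TNNC2 stood 63, 106, 119 and 376 places from CAPNS1, and RPL10A stood 1530 places away. Whether the place on the list had a part in these correlations was not tested. Correlations with all other features ran from -0.70 to 0.77 for MAPK12 and from -0.72 to 0.81 for CAPNS1. By this measure CAPNS1 was in place 139 among the 1907 other features for MAPK12, and MAPK12 was in place 268 for CAPNS1.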

How the data were processed

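The deposited table holds log values of hybridisation signal, in a unit other than counts or intensities. Per the study's design text, imaging plates were scanned and the same spot diameter was used for all spots. The sources used here do not give the log base or how the authors normalized, centred and filtered the values. The table has 90 columns for 48 muscle samples; columns of 1 sample were averaged (41 of 42 pairs were identical). Arrays carry no counts, so their number limits the precision.

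Array medians ran from 0.012 to 0.124. The 47 arrays in register were quantile-normalized and fitted with limma 3.58.1 in R 4.3.3, with group and animal as terms. Two-sided p-values were Benjamini-Hochberg adjusted over 1908 features per comparison, with calls below 0.05. The fit was tested on simulated data. The pairing comes from the labels, which name the pig; deviations from group means correlated at a median of -0.0236 within and -0.00355 between animals. Genes named are MAPK12 and CAPNS1, list genes that were called or are the only measured ones of their list, markers, and for each gene the 5 most similar features that carry another gene's symbol. The members and lists were chosen with earlier results of these data known. The cDNA accessions and symbols are those of the platform annotation, whose gene identifiers match the same symbols in the current gene table; with 1 feature per gene, neither symbol could be checked against a second feature. P-values rest on the spread of samples that is left after the group and animal terms, so stable differences between pigs are taken out. Each pig gave at most 1 sample per group.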

Additional observations from a re-analysis of the deposited data

Results flagged for a closer look

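In the lesions of 7 d the normalized value of CAPNS1 in pig G was 0.156, and its gap to the nearest of the other 8 samples was 0.641 of the whole range of the group, against a critical value of 0.493. Chance marks about 1 in 20 groups in this way, and 20 groups of values were examined. The same sample was not marked in the deposited values, where it stood at 0.109. MAPK12 on that array was at a normalized 2.17, within the range of its group.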

How the results depend on the processing

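The settings were another normalization, the array SD as a term, a subtracted local trend (a running median along the feature list), array weights, other blocks, other arrays, only the groups compared, and leaving out each pig. The cause was not tested for any change below. The deposited and median-centred values keep the unequal array spreads, and the part of these spreads in the differences was not tested. On deposited values the differences from control at 6 h, 2 d, 7 d and 21 d were -0.95, -0.50, -1.29 and -1.13 for MAPK12 and -1.03, -0.55, -1.63 and -1.29 for CAPNS1, with CAPNS1 at -1.08 for 7 d minus 2 d. On median-centred values they were -0.94, -0.48, -1.27 and -1.10 for MAPK12 and -1.02, -0.53, -1.61 and -1.27 for CAPNS1, with -1.08 for 7 d minus 2 d. On centred and scaled values MAPK12 was at 0.31, -0.046 and 0.35 at 2 d, 7 d and 21 d, and CAPNS1 was at 0.35 at 2 d. With all 48 arrays MAPK12 at 6 h was at -0.49. Small differences turned above 0 as well. MAPK12 was at 0.0032 at 2 d and 0.012 at 21 d with the trend subtracted, at 0.020 and 0.010 with array weights, and at 0.0049 at 21 d with array SD in the model. CAPNS1 was at 0.062 at 2 d and 0.013 at 21 d with array SD in the model, at 0.0027 at 2 d with the trend subtracted and at 0.014 at 2 d without pig F.

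MAPK12 at 7 d minus 2 d passed the test on median-centred values (-0.79) and with array weights (-0.21, the same size with a smaller SE of 0.0718). MAPK12 did not pass there with array SD in the model (-0.16), with all 48 arrays (-0.21, SE 0.156) or on scaled values (-0.36, SE 0.444). Its difference of 21 d minus 2 d turned to 0.033 on scaled values, 0.032 with array SD in the model, 0.0084 after subtracting the trend and 0.036 without pig J. CAPNS1 at 21 d minus 6 h turned to -0.26 on deposited values, -0.24 on median-centred values and -0.17 with all 48 arrays, and to -0.045, -0.065 and -0.060 without pigs E, G and H. None of these turned values passed the test.

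Without the replicate block MAPK12 at 7 d minus 2 d was at -0.20 and CAPNS1 at 7 d at -0.76, and no call of the 4 tested comparisons changed, either so or with the animal as a random block. The random block lost the 7 d call of TNNT3.

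Leaving out 1 pig gave, for MAPK12, -0.30 to -0.24 at 6 h, -0.11 to -0.02 at 2 d, -0.33 to -0.21 at 7 d, -0.11 to -0.06 at 21 d, -0.25 to -0.18 for 7 d minus 2 d and -0.046 to 0.036 for 21 d minus 2 d. For CAPNS1 it gave -0.38 to -0.25 at 6 h, -0.14 to 0.01 at 2 d, -0.84 to -0.53 at 7 d, -0.37 to -0.21 at 21 d and -0.065 to 0.14 for 21 d minus 6 h.

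Of the 17 measured features of list genes, 2, 0, 3 and 3 were called against control at 6 h, 2 d, 7 d and 21 d. The share of all features called at these ages was 11.8%, 0.734%, 25.4% and 14.7%. On deposited values 4, 0, 9 and 8 list features were called, on median-centred values 4, 1, 10 and 8, and with array SD in the model 1 at 21 d. For these other settings the share of all features called is not given here, so the counts are no result about the list genes. At 7 d the count of list features was 2 without pig E, F, H, I, J, K or L, and at 21 d it was 2 without pig D or J.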
